A study of Xenopus laevis with 12 samples.

Results

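The treatment difference that tadpole brains shared at both sampled stages, after thioridazine exposure as embryos, was followed through 6 pairs of libraries. Thioridazine is a phenothiazine antipsychotic that blocks dopamine receptors. Wild-type embryos of the frog Xenopus laevis were kept in 90 µM thioridazine from Nieuwkoop-Faber (NF) stage 14 to stage 26, while the neural tube forms, and were then reared without the drug. Whole brains were sequenced from thioridazine animals at NF 45, thioridazine animals at NF 47, untreated controls at NF 45 and untreated controls at NF 47, with 3 libraries in each group. Drug and control embryos alike were held at 18 °C during the exposure window, at 50 embryos per 10 mL, and at 14 °C before and after it. The labels do not give the number of brains in a library or the clutch it came from, and the study describes the exposed tadpoles as having brain abnormalities. Each pair joined the thioridazine and the control library of the same stage and replicate number. The treatment difference was averaged over the stages with the pair as a block, and the members are the genes that pointed the same way in all 6 pairs, which were 1670 of the 26570 genes tested.

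The tadpole brain includes the hypothalamus, whose neurons make releasing hormones, and often the attached pituitary, whose cells make growth hormone, prolactin, thyrotropin and the melanocortin precursor under hypothalamic and dopaminergic control. Neural crest cells, which leave the neural tube during the window of exposure, give rise to the pigment cells that later cover the brain and to part of the cranial connective tissue. Macrophages and granulocytes reach the brain through blood and meninges. The genome of this frog is doubled, and many of its genes exist as an .L copy and an .S copy. In bulk tissue, fewer cells of a type and less RNA per cell cannot be told apart.

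The libraries held between 12843954 and 18164871 counted reads. Summed levels of the 48 neuronal genes tested lay between 8081 and 12206 CPM, a read count scaled to a common library total in the 12 libraries. Both NF 45 libraries numbered 2 stood apart, at 118.3 (thioridazine) and 104.4 (control) on the first principal component, which held 46.8% of the variance, while the other 10 libraries lay between -56.16 and 9.6. The NF 45 control library numbered 3 stood apart on the second component, at -67.18. Collagen and other connective tissue genes summed to 2673 CPM and 2645 CPM in the NF 45 thioridazine and control libraries numbered 2, and to between 4925 CPM and 8780 CPM in the others. Same-numbered libraries deviated from their group means together, with correlations of 0.575, 0.845 and 0.449 at NF 45 and 0.291, 0.318 and 0.54 at NF 47.

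Averaged over both stages, 22 genes rose in thioridazine brains, 0.0828% of the genes tested, and 3 fell, 0.0113%, at an adjusted p under 0.05 (edgeR's quasi-likelihood F test, Benjamini-Hochberg adjustment). The 3 genes that fell all encode growth hormone. Among the genes that rose were 4 of the pigment cell list, a granulocyte peroxidase and a secreted protease, a lysosomal protease, a fibrillar collagen and the neuropeptide gene gnrh2.L. Log2 fold changes, always thioridazine minus control, ran between 0.47 and 5.90 for the genes that rose and between -0.92 and -0.79 for those that fell. Of these 25 genes, 21 had the same direction in all 6 pairs and 4 in 5 pairs.

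The direction counts were wider than the calls. In all 6 pairs 823 genes were higher in thioridazine brains, 3.1% of those tested, and 847 were lower, 3.19%. Their median absolute log2 fold change was 0.25, and only 54 of the 1670 exceeded 1, of which 45 were higher and 9 lower. At both stages every thioridazine library lay above every control library in 86 genes (0.324%) and below in 40 (0.151%). An unadjusted p under 0.05 for the averaged difference was reached by 2441 genes (9.19%). Just inside the threshold lay an adjusted p of 0.0428 and just outside it 0.0508, the value of slc34a3.L.

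The stages share no library, so the agreement between them could be read gene by gene. Of 3027 genes higher in all 3 NF 45 pairs, 27.2% were higher in all 3 NF 47 pairs and 6.05% were lower in all 3. Of 3425 genes lower in all 3 NF 45 pairs, 24.7% were lower and 5.69% higher in all 3 NF 47 pairs. Over all genes tested these NF 47 shares were 14.6% higher and 13.6% lower. Across the 26570 genes, which are not independent of each other, the log2 fold changes of the stages had a Pearson correlation of 0.366 and a Spearman correlation of 0.315. Within the same fit of all 12 libraries, the treatment difference at NF 45 gave 6 calls (0.0226% of genes) and that at NF 47 gave 1 (0.00376%).

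**Figure D1:**
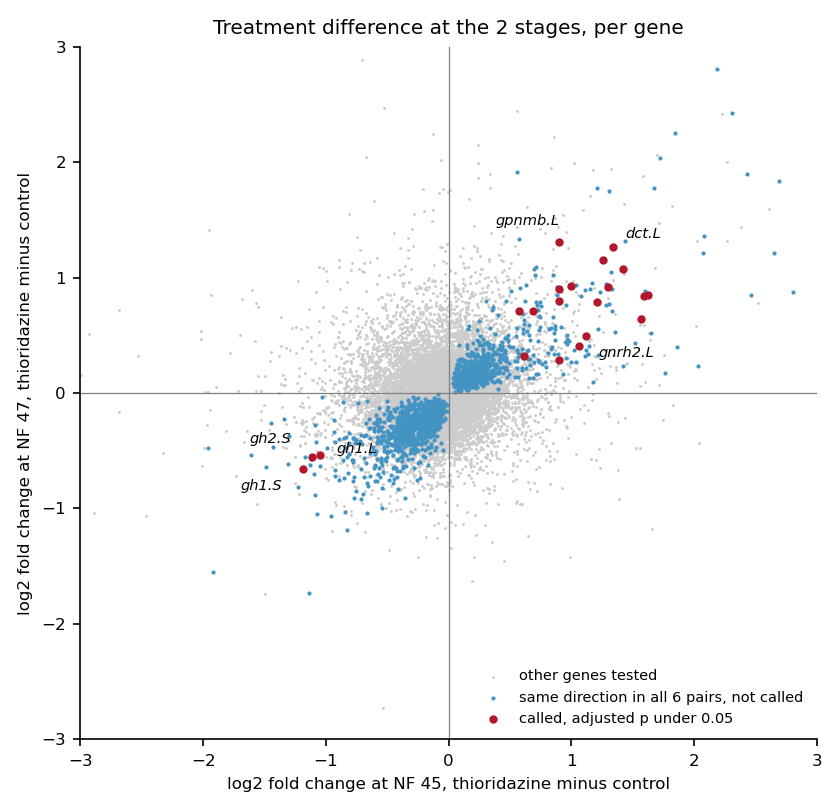
Log2 fold change (thioridazine minus control) at NF 45 on the horizontal axis and at NF 47 on the vertical axis, 1 point per gene tested, within 3 log2 units on each axis, which leaves out 42 genes, 4 of them called. The genes with the same direction in all 6 pairs lie in the upper right and lower left because of how they were chosen. The growth hormone copies are the called genes at the lower left.

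No gene passed the threshold for a difference between the stages in its treatment effect (edgeR, 0 genes, 0%), with 402 genes at an unadjusted p under 0.05. DESeq2 and limma-voom also called 0 genes, with 131 and 1283 at an unadjusted p under 0.05. Among the 25 genes, 19 had the larger absolute log2 fold change at NF 45, and 10 had an unadjusted p under 0.05 for the stage difference. The treatment difference at NF 45 alone had an unadjusted p under 0.05 in 25 of these genes, and that at NF 47 alone in 24. The 25 genes were called on the average of these same stage differences, so low p-values at each stage follow in part from that choice. These counts are therefore no separate test of an effect at each stage.

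The number of calls depended on the pairs. Without the block no gene was called, with 783 at an unadjusted p under 0.05 (edgeR). Without NF 45 pair 1, 2 or 3 there were 21, 15 and 302 calls, and without NF 47 pair 1, 2 or 3 there were 12, 8 and 1. The 1 gene left without NF 47 pair 3 was gpnmb.L, which alone kept its call in all 6 of these fits. All 25 genes kept their sign in every one of them. Other tests on the same pairs, DESeq2 and limma-voom, called 73 and 223 genes, in each case with all 25 among them.

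**Figure D2:**
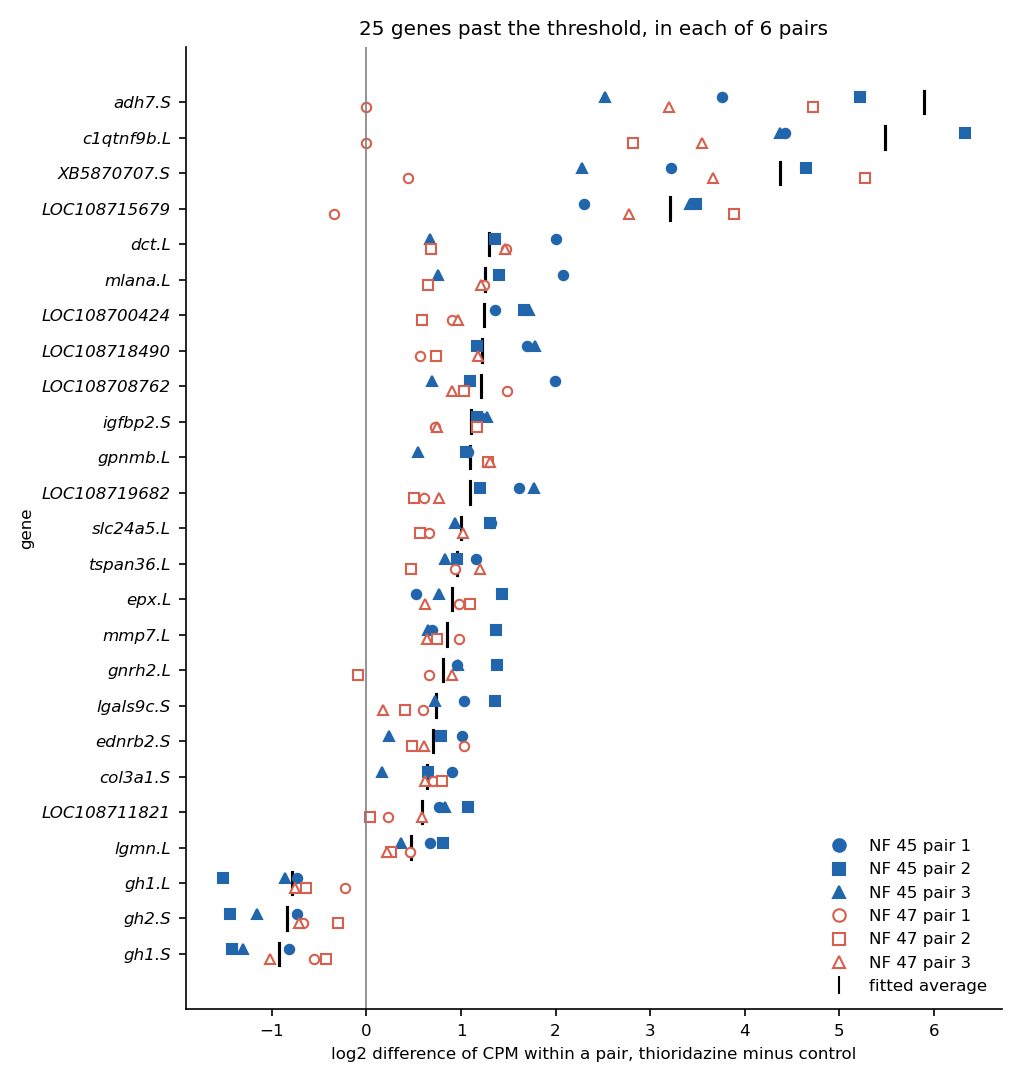
Log2 difference in CPM within each pair (thioridazine minus control, prior count of 2) for the 25 called genes, with NF 45 pairs filled, NF 47 pairs open and the fitted average as a bar. For the top 4 genes, which are near 0 in most control libraries, NF 47 pair 1 lies close to 0 and the fitted average of the first 2 exceeds most pair differences, as the fit adds no such prior.

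Growth hormone, secreted by the pituitary somatotropes to drive body growth, was the group that fell. Its copies gh1.L, gh1.S and gh2.S are similar in sequence and can share reads in counting, so they are not independent measurements. In thioridazine brains gh1.S stood at 15.8, 7.75 and 6.33 CPM at NF 45, against 28.2, 20.9 and 15.9 CPM in controls. At NF 47 it stood at 19.3, 30.8 and 12 CPM in thioridazine brains, against 28.5, 41.6 and 24.5 CPM in controls. Every thioridazine library was thus below the control of its pair, and the groups did not overlap at NF 45 but did at NF 47. The averaged log2 fold change was -0.92 ± 0.105 (SE, edgeR adjusted p = 0.00744), with -1.18 at NF 45 and -0.66 at NF 47.

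The gh1.L copy stood at 16.1, 7.14 and 8.69 CPM in thioridazine brains at NF 45, against 27, 20.7 and 15.9 CPM in controls. At NF 47 its levels were 23.1, 28.2 and 14.4 CPM in thioridazine brains, against 27.1, 44 and 24.4 CPM in controls. It was lower in all 6 pairs, with group ranges that overlapped at both stages, and fell by 0.79 on the log2 scale (SE 0.111, edgeR adjusted p = 0.0212). gh2.S, at lower levels of 3.12 to 7.5 CPM in thioridazine brains and 8.47 to 12.5 CPM in controls at NF 45, fell by 0.84 on the log2 scale (SE 0.12, edgeR adjusted p = 0.0212). With reads of gh1.L and gh1.S added together, the log2 fold change was -0.86 (edgeR adjusted p = 0.0103). The unadjusted p for a smaller difference at NF 47 was 0.0287 for gh1.S, 0.042 for gh1.L and 0.038 for gh2.S. The gh1.S call was lost only without NF 47 pair 3, whereas those of gh1.L and gh2.S were lost without 3 and 4 of the 6 pairs.

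Pituitary genes were followed from a list of 30 tested copies. The 3 growth hormone copies were called lower, and no other gene of the list was called. In all 6 pairs 6 of the list, these 3 copies among them, were lower (20%, beside 3.19% of all genes) and 0 higher. Its median log2 fold change was -0.08, beside -0.00 for all genes tested. Besides growth hormone, the genes lower in all 6 pairs were cga.S, the common alpha subunit of the glycoprotein hormones (-0.54 ± 0.123), tshb.S, the thyrotropin beta subunit (-0.68 ± 0.223), and pou1f1.L, the transcription factor of somatotropes, lactotropes and thyrotropes (-1.07 ± 0.385). None of these passed, at edgeR adjusted p of 0.188, 0.399 and 0.446. The other copies had -0.52 ± 0.16 for cga.L, lower in 5 of 6 pairs, and -0.13 ± 0.272 for tshb.L, lower in 3. pou1f1.L lay at 0.0758, 0.502 and 0.118 CPM in thioridazine brains at NF 45, against 0.507, 0.81 and 0.77 CPM in controls, so it rests on few reads.

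The prolactin and melanocortin genes were not lower in all 6 pairs. Prolactin, the lactotrope hormone that dopamine restrains, was encoded by prl.2.S at 18.6, 11.8 and 20 CPM in thioridazine brains at NF 45, against 11.7, 15.1 and 15.2 CPM in controls. At NF 47 its levels were 32, 47.6 and 27.9 CPM in thioridazine brains, against 12.7, 18.3 and 14.3 CPM in controls. The NF 47 groups were far apart and the NF 45 groups overlapped, and the averaged log2 fold change of 0.73 ± 0.123 missed the threshold (edgeR adjusted p = 0.0736). The melanocortin precursor genes pomc.L and pomc.S had log2 fold changes of -0.21 and -0.05, each lower in 4 of 6 pairs. Summed over the list, pituitary genes reached 516 to 649 CPM in thioridazine brains and 596 to 752 CPM in controls at NF 45, and 765 to 1171 CPM in thioridazine brains and 821 to 1132 CPM in controls at NF 47. How much pituitary each dissected brain carried was not tested.

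**Figure D3:**
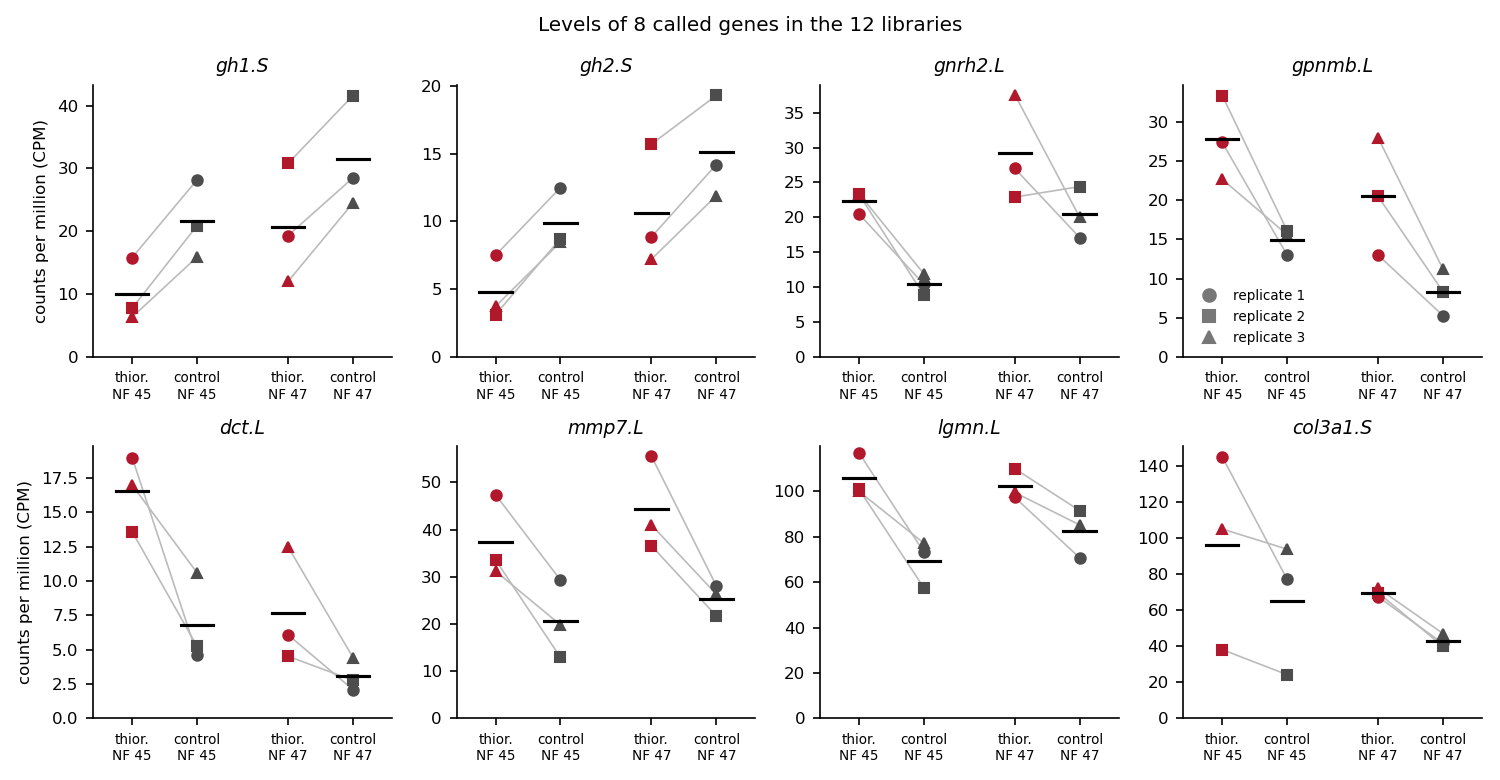
CPM of 8 called genes in every library, with thioridazine in red, control in grey, a grey line joining each pair and a black bar at the mean of 3 libraries. The lines of gh1.S and gh2.S run upward to the controls in all 6 pairs, and those of the other genes run downward except gnrh2.L in NF 47 pair 2.

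gnrh2.L, which encodes the chicken-II form of gonadotropin-releasing hormone, rose. It stood at 20.5, 23.3 and 23.4 CPM in thioridazine brains at NF 45, against 10.4, 8.85 and 11.9 CPM in controls. At NF 47 it stood at 27, 22.9 and 37.6 CPM in thioridazine brains, against 17.1, 24.4 and 20 CPM in controls. The NF 45 groups were clearly separated, whereas NF 47 pair 2 ran the other way. The averaged log2 fold change was 0.81 ± 0.124 (edgeR adjusted p = 0.0428), with 1.12 at NF 45 and 0.50 at NF 47. This call was lost in 4 of the 6 fits that left out a pair.

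Of 66 neuropeptide and hypothalamic genes tested, gnrh2.L was the only one called, and their median log2 fold change was 0.14. In all 6 pairs 7 were higher (10.6%) and 1 lower (1.52%), beside 3.1% and 3.19% of all genes. Without both NF 45 pairs numbered 2 and 3, 7 were higher (10.6%) and 6 lower (9.09%) in the other 4 pairs. Of all genes, 9.03% were higher and 8.26% lower in those 4 pairs. Genes higher in all 6 pairs included hcrt.L, the orexin precursor (0.70 ± 0.226), hmx3.L, a hypothalamic transcription factor (0.30 ± 0.0948), and vip.L, vasoactive intestinal peptide (0.26 ± 0.0854). cck.L, the cholecystokinin precursor, was the one lower in all 6 pairs, at 15.2, 11.1 and 14.7 CPM in thioridazine brains at NF 45, against 23.6, 15.1 and 15.4 CPM in controls. At NF 47 cck.L stood at 25.1, 20.9 and 22.5 CPM in thioridazine brains, against 29.2, 33.5 and 30.5 CPM in controls. Its groups overlapped at NF 45 and were apart at NF 47 (log2 fold change -0.41 ± 0.095, edgeR adjusted p = 0.191). The oxytocin-type gene oxt.L, whose peptide is mesotocin in frogs, had 0.61 ± 0.133 and was higher in 5 of 6 pairs (edgeR adjusted p = 0.191).

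Dopamine genes, whose receptors thioridazine blocks, gave no call among 69 monoamine genes tested, whose median log2 fold change was -0.01. In all 6 pairs 4 were higher (5.8%) and 3 lower (4.35%), beside 3.1% and 3.19% of all genes. The receptor gene drd2.L had 9.93, 15.1 and 9.7 CPM in thioridazine brains at NF 45, against 8.47, 12.8 and 9.16 CPM in controls. At NF 47 drd2.L had 14.4, 15 and 13.5 CPM in thioridazine brains, against 13.3, 14 and 12.8 CPM in controls. It was higher in all 6 pairs but by little (0.14 ± 0.0852, edgeR adjusted p = 0.654). The receptor gene drd1.S was lower in all 6 pairs by about as much (-0.13 ± 0.132, edgeR adjusted p = 0.802). The other drd2 copy, drd2.S, had -0.02 ± 0.101, lower in 4 of 6 pairs, and this sign turned in 3 of the fits that left out a pair. Tyrosine hydroxylase, the first enzyme of dopamine synthesis, was higher in 5 of 6 pairs in both copies, with log2 fold changes of 0.34 ± 0.123 for th.L and 0.29 ± 0.169 for th.S (edgeR adjusted p of 0.446 and 0.647).

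Downstream of tyrosine hydroxylase, the decarboxylase gene ddc.L was higher in all 6 pairs. It stood at 23.7, 24.7 and 27.7 CPM in thioridazine brains at NF 45, against 17.4, 16.8 and 23.7 CPM in controls, and did not pass (0.35 ± 0.0797, edgeR adjusted p = 0.191). lmx1a.L, a transcription factor of midbrain dopamine progenitors, was higher in all 6 pairs, with 0.48 at NF 45 and 0.47 at NF 47 (averaged 0.47 ± 0.0879, edgeR adjusted p = 0.1). The list's other transcription factors varied. lmx1a.S (0.34 ± 0.134) and pitx3.S (0.44 ± 0.18) were higher in 5 of 6 pairs. pitx3.L had 0.60 at NF 45 and -0.21 at NF 47. nr4a2.L (0.09 ± 0.0823), nr4a2.S (0.02 ± 0.0773), lmx1b.1.L (0.06 ± 0.0862) and lmx1b.1.S (-0.04 ± 0.0847) were near 0. lmx1b.2.L was lower in 5 of 6 pairs (-0.39 ± 0.211). The serotonin receptor gene htr2c.S was lower in all 6 pairs (-0.46 ± 0.141, edgeR adjusted p = 0.36).

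Genes of the pigment cell list formed the largest group of named genes that rose. Of 33 tested genes of melanin synthesis and pigment cells, 4 were called higher and 0 lower. In all 6 pairs 5 were higher (15.2%, beside 3.1% of all genes) and 0 lower. The list's median log2 fold change was 0.13, beside -0.00 for all genes. gpnmb.L, a transmembrane glycoprotein of melanosomes and of macrophages, stood at 27.4, 33.4 and 22.7 CPM in thioridazine brains at NF 45, against 13, 16.1 and 15.6 CPM in controls. At NF 47 gpnmb.L stood at 13, 20.5 and 28 CPM in thioridazine brains, against 5.26, 8.32 and 11.2 CPM in controls. The groups did not overlap at either stage, and the averaged difference was 2.15-fold (log2 1.10 ± 0.0926, edgeR adjusted p = 0.00114).

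The melanin enzyme dopachrome tautomerase, dct.L, rose 2.47-fold (log2 1.30 ± 0.179, edgeR adjusted p = 0.0212). It stood at 19, 13.6 and 17 CPM in thioridazine brains at NF 45, against 4.63, 5.24 and 10.6 CPM in controls. At NF 47 dct.L stood at 6.09, 4.52 and 12.5 CPM in thioridazine brains, against 2.09, 2.77 and 4.43 CPM in controls. Thioridazine libraries lay above all controls at each stage, by a narrow gap at NF 47. The melanosome protein gene mlana.L and slc24a5.L, a cation exchanger of the pigment granule, rose by log2 1.25 ± 0.187 and 1.00 ± 0.135 (edgeR adjusted p of 0.0309 and 0.0207). The other copy slc24a5.S had a log2 fold change of -0.14 ± 0.273, and with both copies added the call was lost (edgeR adjusted p = 0.102).

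The remaining pigment genes were mostly higher without passing. The melanosome matrix gene pmel.S stood at 107, 70 and 74 CPM in thioridazine brains at NF 45, against 44.2, 40.5 and 71.8 CPM in controls, and was higher in all 6 pairs (log2 0.89 ± 0.153, edgeR adjusted p = 0.158). pmel.L and tyrp1.L, a tyrosinase-related melanin enzyme, were each higher in 5 of 6 pairs, with 0.64 ± 0.182 and 0.61 ± 0.195. Genes of the pigment and crest lineage earlier in development varied and did not pass. The crest factors had 0.13 ± 0.143 for sox10.L, 0.08 ± 0.116 for sox10.S, -0.01 ± 0.0906 for pax3.L and -0.07 ± 0.0979 for pax3.S. mitf.S, the melanocyte master factor, had 0.62 ± 0.294 and the receptor kinase gene kit.S 0.25 ± 0.129, each higher in 5 of 6 pairs, while the endothelin receptor gene ednrb.L had -0.47 ± 0.218, lower in 5 of 6 pairs. Outside the list, 2 more called genes are known from pigment cells. ednrb2.S, an endothelin receptor of pigment cell precursors, rose by log2 0.70 ± 0.11 (edgeR adjusted p = 0.0428), and tspan36.L, a tetraspanin known from zebrafish pigment cells, by 0.96 ± 0.137 (edgeR adjusted p = 0.0212). Their other copies had 0.06 ± 0.195 for ednrb2.L and 0.72 ± 0.164 for tspan36.S, and the summed ednrb2 lost its call (edgeR adjusted p = 0.406).

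Summed over the list, pigment genes reached 1022, 677 and 761 CPM in thioridazine brains at NF 45, against 630, 548 and 821 CPM in controls. At NF 47 the sums were 589, 654 and 772 CPM in thioridazine brains, against 454, 595 and 626 CPM in controls. Control library 3 at NF 45 had the highest control sum and exceeded its pair. Of the 6 fits that left out a pair, dct.L, slc24a5.L and tspan36.L kept their call in 2, and mlana.L and ednrb2.S in 1, with edgeR adjusted p of up to 0.293. The NF 45 libraries thioridazine 1 and control 3, with the highest pigment sum of their groups, also had the highest retina sums, 954 and 1064 CPM. The amount of pigmented membrane or eye tissue on each dissected brain was not tested.

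A granulocyte peroxidase and a metalloprotease gene rose as well. epx.L, an eosinophil-type peroxidase, stood at 35, 28.3 and 28.6 CPM in thioridazine brains at NF 45, against 24.3, 10.4 and 16.7 CPM in controls. At NF 47 epx.L stood at 44.9, 34.2 and 33.8 CPM in thioridazine brains, against 22.7, 15.9 and 21.9 CPM in controls. All thioridazine libraries exceeded all controls of their stage, with 0.90 at each stage and an averaged log2 fold change of 0.90 ± 0.114 (edgeR adjusted p = 0.0192). The matrix metalloprotease gene mmp7.L behaved alike, at 47.4, 33.6 and 31.2 CPM in thioridazine brains at NF 45, against 29.3, 12.9 and 19.8 CPM in controls. Its averaged log2 fold change was 0.85 ± 0.0978 (edgeR adjusted p = 0.00744). The calls of both genes were lost without any 1 of the 3 NF 47 pairs.

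A list of 16 granulocyte enzymes and proteases was drawn up after these values were seen. Of its genes, 2 were called higher, 14 had a log2 fold change above 0 and 2 below, and the median was 0.34. In all 6 pairs 7 were higher (43.8%, beside 3.1% of all genes) and 0 lower. The 7 were mmp7.L, epx.L, mmp9.1.S, a gelatinase (0.86 ± 0.149), mpo.L, myeloperoxidase (0.77 ± 0.131), prtn3.L and prtn3.S, the neutrophil protease 3 gene copies (0.96 ± 0.204 and 0.59 ± 0.097), and cfp.L, properdin (0.38 ± 0.0721). Apart from the called pair, edgeR adjusted p values lay between 0.0527 for prtn3.S and 0.158 for prtn3.L. Near 0 were the other myeloperoxidase copy mpo.S (0.05 ± 0.173), gfi1.S (-0.06 ± 0.233), mmp9.2.L (0.08 ± 0.344) and serpinb1.L (-0.05 ± 0.423). The list's sum was 264, 201 and 215 CPM in thioridazine brains at NF 45, against 196, 94.4 and 160 CPM in controls. At NF 47 the sum was 298, 229 and 228 CPM in thioridazine brains, against 175, 152 and 165 CPM in controls. Every thioridazine sum exceeded every control sum of its stage. The list was chosen with these values known, so this separation follows in part from that choice and is no separate result.

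Leukocyte and microglial genes pointed the same way without a call. Of 42 tested, 38 had a log2 fold change above 0, and the median was 0.29. In all 6 pairs 7 were higher (16.7%, beside 3.1% of all genes) and 0 lower. ncf1.L, a subunit of the phagocyte oxidase, and spi1.S, a myeloid transcription factor, had 0.94 ± 0.241 and 0.88 ± 0.281, with edgeR adjusted p of 0.25 and 0.39. The other copy spi1.L had 0.03 ± 0.208. Near 0 as well were the list members c1qb.L (0.04 ± 0.196) and plek.L (0.01 ± 0.216). tyrobp.L, an adaptor of microglial receptors, had 1.36 at NF 45 and 0.23 at NF 47. Sums over the list were 799, 585 and 725 CPM in thioridazine brains at NF 45, against 620, 436 and 652 CPM in controls, and 631, 710 and 637 CPM in thioridazine brains at NF 47, against 563, 687 and 591 CPM in controls. The lectin gene lgals9c.S, a galectin, rose by log2 0.74 ± 0.101 (edgeR adjusted p = 0.0207), as the 1 called gene of 39 in the complement and innate immune list. It stood at 22.3, 35.5 and 14.3 CPM in thioridazine brains at NF 45, against 10.9, 13.7 and 8.55 CPM in controls.

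The lysosomal protease legumain, lgmn.L, rose at both stages. It stood at 117, 101 and 100 CPM in thioridazine brains at NF 45, against 73.3, 57.5 and 77.2 CPM in controls. At NF 47 lgmn.L stood at 97.4, 110 and 99.5 CPM in thioridazine brains, against 70.7, 91.5 and 85.2 CPM in controls. The groups did not overlap at either stage (log2 0.47 ± 0.0725, edgeR adjusted p = 0.0396). lgmn.S had -0.14 ± 0.0852, and the summed copies lost the call (edgeR adjusted p = 0.225), as did 5 of the 6 fits that left out a pair.

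Of 68 lysosomal genes tested, 1 was called and 15 were higher and 0 lower in all 6 pairs, 22.1% beside 3.1% of all genes, and their median log2 fold change was 0.10. Those genes included the cathepsins ctsz.S (0.41 ± 0.0812), ctsk.L (0.56 ± 0.116) and ctsb.S (0.25 ± 0.0661), the glycosidase naga.L (0.45 ± 0.111), the protective protein ctsa.L (0.24 ± 0.061) and the saposin precursor psap.S (0.26 ± 0.0682). Except lgmn.L they did not pass, with edgeR adjusted p from 0.137. The leukocyte and macrophage list was higher too, as given above, and its part in the lysosomal values was not tested. Without both NF 45 pairs numbered 2 and 3, 20 of the 68 were higher and 2 lower in the other 4 pairs, beside 9.03% higher and 8.26% lower of all genes. That setting was chosen after the data were seen. Its 4 pairs are part of the 6, so genes higher in all 6 are counted again.

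Connective tissue contributed col3a1.S, the fibrillar type III collagen chain. It stood at 145, 38.1 and 105 CPM in thioridazine brains at NF 45, against 77, 24.2 and 93.8 CPM in controls. At NF 47 it stood at 67.4, 69.6 and 72.2 CPM in thioridazine brains, against 41.5, 39.9 and 47 CPM in controls. The NF 45 values overlapped, with both libraries numbered 2 low, and the NF 47 groups were apart. The averaged log2 fold change was 0.64 ± 0.0892 (edgeR adjusted p = 0.0212). col3a1.L had 0.39 ± 0.0774, and the summed copies missed the threshold (edgeR adjusted p = 0.0817).

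Among 71 tested genes of cartilage, bone and connective tissue, 1 was called, and the median log2 fold change was 0.16. Of the 71, 58 were above 0 and 13 below. In all 6 pairs 11 were higher (15.5%, beside 3.1% of all genes) and 0 lower. The higher ones included col6a2.L (0.32 ± 0.0672), col5a2.S (0.36 ± 0.0846), col1a1.L (0.29 ± 0.096) and col1a2.L (0.35 ± 0.0943), chains of type VI, V and I collagen, and the mesenchymal transcription factor twist1.S (0.28 ± 0.0863). Others of the list ran the other way. matn1.S had -1.99 ± 0.493, lower in 5 of 6 pairs, at 2.12 CPM or less in every library (edgeR adjusted p = 0.236). matn1.L had -0.80 ± 0.293, lower in 3 of 6 pairs, and hapln1.S and hapln1.L had -0.29 ± 0.169 and -0.33 ± 0.195. igfbp2.S, a binding protein of insulin-like growth factors, also rose (log2 1.11 ± 0.173, edgeR adjusted p = 0.0405). It stood at 6.67, 1 and 6.68 CPM in thioridazine brains at NF 45, against 2.82, 0.374 and 2.69 CPM in controls. At NF 47 igfbp2.S stood at 4.04, 3.14 and 2.92 CPM in thioridazine brains, against 2.39, 1.32 and 1.69 CPM in controls. Like the collagens, igfbp2.S was low in both NF 45 libraries numbered 2.

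A set of called genes was near 0 in most control libraries and reached a few CPM in most thioridazine libraries. c1qtnf9b.L, a secreted protein of the C1q and tumour necrosis factor family, stood at 7.43, 15.5 and 2.6 CPM in thioridazine brains at NF 45, against 0.217, 0.0623 and 0 CPM in controls. At NF 47 it stood at 0, 0.802 and 3.06 CPM in thioridazine brains, against 0, 0 and 0.141 CPM in controls. NF 47 thioridazine replicate 1 was thus without a read, as was its control, and the other 5 pairs were higher (edgeR adjusted p = 0.00114). adh7.S, an alcohol dehydrogenase of retinol and ethanol oxidation, stood at 2.65, 9.48 and 3.73 CPM in thioridazine brains at NF 45, against 0.0724, 0.125 and 0.539 CPM in controls. At NF 47 adh7.S stood at 0, 3.35 and 1.09 CPM in thioridazine brains, with no read in any control (edgeR adjusted p = 0.0207). Against a floor of 3 reads over the 3 controls, its 62 reads at NF 47 gave a ratio of 21.7. Those reads were pooled over the thioridazine libraries, of which replicate 1 held none. The ratio covers counting error only and is no bound on the difference between the groups. With so few control reads, c1qtnf9b.L and adh7.S could pass the filter only through thioridazine libraries.

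XB5870707.S and LOC108715679, which carry no descriptive name, had the same profile. XB5870707.S stood at 3.79, 12.6 and 16.9 CPM in thioridazine brains at NF 45, against 0.29, 0.374 and 3.39 CPM in controls, with an edgeR adjusted p of 0.0207. At NF 47 it stood at 0.128, 7.51 and 2.45 CPM in thioridazine brains, against 0.0597, 0.066 and 0.0703 CPM in controls. LOC108715679 had its lowest thioridazine level, 0.256 CPM, in the same NF 47 replicate 1, below its control of 0.358 CPM (edgeR adjusted p = 0.0302). For genes this close to 0 the fitted fold change depends on how zeros are handled and is not a bound. The largest changes among genes that did not pass were of the same kind. slc34a3.L, a phosphate transporter of the kidney tubule, stood at 1.29, 11.2 and 5.44 CPM in thioridazine brains at NF 45, against 0.0724, 0.187 and 0.539 CPM in controls. cltrn.L, collectrin, a tubule amino acid transport partner, stood at 2.2, 12.9 and 4.49 CPM in thioridazine brains at NF 45, against 0.507, 0.436 and 0.924 CPM in controls. At NF 47 cltrn.L stood at 0.641, 3.94 and 1.63 CPM in thioridazine brains, against 0.597, 0.264 and 0.281 CPM in controls. Both missed the threshold, slc34a3.L at an edgeR adjusted p of 0.0508 and cltrn.L at 0.191. Also low in controls and not called were slc5a2.L, tmlhe.S, fmo5.1.L, mep1b.S and pdzd3.L. Their highest control levels were 0.693, 1.15, 1.15, 0.924 and 1.59 CPM, and their highest thioridazine levels 6.92, 4.24, 4.96, 2.58 and 5.52 CPM.

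**Figure D4:**
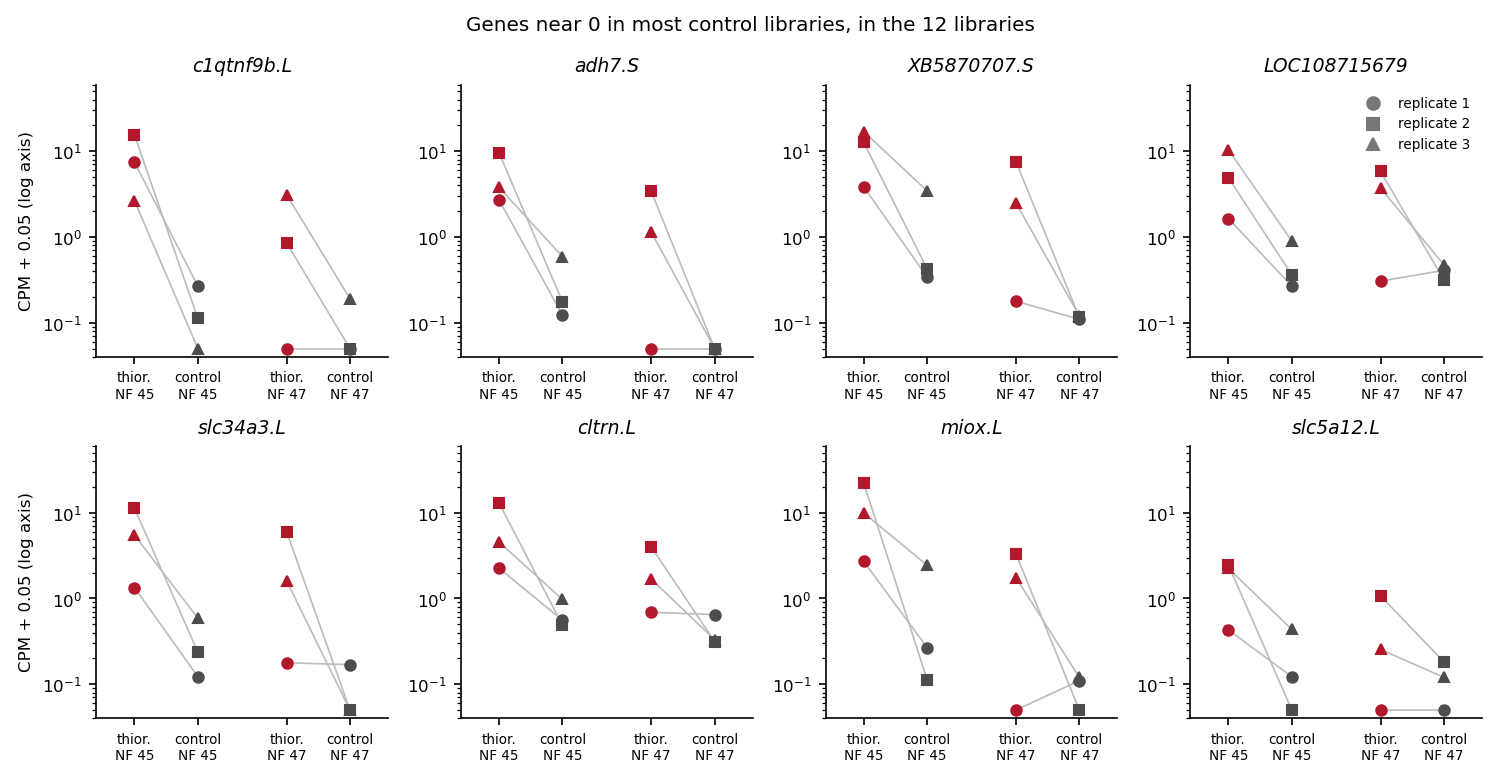
CPM plus 0.05 on a log axis in every library for 4 called genes (upper row) and 4 genes that did not pass (lower row), with thioridazine in red, control in grey and a line joining each pair. NF 47 thioridazine replicate 1 lies at or near the level of its control in all 8 panels, and NF 45 control replicate 3 is the highest NF 45 control in 7 of them, c1qtnf9b.L being the other.

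Kidney tubule genes were detected in the same libraries. A list of them, drawn up after the values were seen, had 37 genes tested and 0 called. In all 6 pairs 7 were higher (18.9%, beside 3.1% of all genes) and 0 lower (beside 3.19%). The median log2 fold change was 0.75, and it stayed at 0.75 with the 2 genes that had a group without reads set to their bound. Genes with few control reads, such as pdzk1ip1.L, could pass the filter only through thioridazine libraries. The direction of the list's values thus follows in part from the choice of genes. The median within single pairs ran between 0.12 and 2.18, with NF 45 pair 2 the highest. The list's sum was 429, 769 and 452 CPM in thioridazine brains at NF 45, against 453, 537 and 425 CPM in controls. At NF 47 the sum was 552, 626 and 504 CPM in thioridazine brains, against 520, 614 and 550 CPM in controls, so that the sum was higher in 4 pairs and lower in 2. Abundant members present in every library weigh most in this sum. In NF 45 pair 1 slc2a2.L alone stood at 107 CPM with thioridazine and 143 CPM in the control. In NF 47 pair 3 it stood at 140 CPM with thioridazine and 182 CPM in the control. These were the 2 pairs with the lower sum. miox.L, the inositol oxygenase of the renal tubule, stood at 2.65, 22.1 and 9.87 CPM in thioridazine brains at NF 45, against 0.217, 0.0623 and 2.39 CPM in controls. At NF 47 miox.L stood at 0, 3.28 and 1.7 CPM in thioridazine brains, against 0.0597, 0 and 0.0703 CPM in controls. The 5 thioridazine libraries with reads of c1qtnf9b.L and adh7.S all held miox.L, and NF 47 thioridazine replicate 1 held no read of any of these genes. NF 45 control replicate 3 held miox.L at 2.39 CPM and adh7.S at 0.539 CPM, without a read of c1qtnf9b.L. The number of list genes at 1 CPM or more was 29, 36 and 30 in thioridazine brains at NF 45, against 18, 17 and 27 in controls, and 17, 26 and 20 in thioridazine brains at NF 47, against 17, 17 and 16 in controls. The part of kidney tissue in the near-0 genes was not tested.

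The other called genes without a descriptive name rose by smaller amounts. LOC108700424, LOC108719682 and LOC108718490 had log2 fold changes of 1.24 ± 0.129, 1.10 ± 0.116 and 1.22 ± 0.144 (edgeR adjusted p of 0.00416, 0.00416 and 0.00772). LOC108719682 stood at 9.1, 7.03 and 12.9 CPM in thioridazine brains at NF 45, against 2.9, 2.99 and 3.7 CPM in controls. At NF 47 it stood at 10, 12.3 and 17.1 CPM in thioridazine brains, against 6.51, 8.65 and 9.92 CPM in controls. Its groups were apart at both stages, with the wider gap at NF 45 (unadjusted p of the stage difference 0.00179). These 3 genes lost their call only without NF 47 pair 3, as did c1qtnf9b.L. LOC108708762 rose by 1.21 ± 0.168 and LOC108711821 by 0.59 ± 0.0944 (edgeR adjusted p of 0.0212 and 0.0428).

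Most genes of cell division were higher, without a call. Of 104 tested genes of the cell cycle and DNA replication, 99 had a log2 fold change above 0, 31 were higher and 0 lower in all 6 pairs, 29.8% beside 3.1% of all genes, and the median was 0.18. The ribonucleotide reductase subunit gene rrm2.2.L stood at 80.5, 92.6 and 126 CPM in thioridazine brains at NF 45, against 73.1, 66.2 and 85.5 CPM in controls. At NF 47 rrm2.2.L stood at 59.1, 56.4 and 86.4 CPM in thioridazine brains, against 49.3, 51.8 and 69 CPM in controls. Each pair was higher, but the groups overlapped at both stages (0.32 ± 0.0714, edgeR adjusted p = 0.188). The spindle genes prc1.S (0.28 ± 0.0633) and kif20a.L (0.30 ± 0.0711), the mitotic kinase gene plk1.L (0.23 ± 0.0667), the cyclin ccna2.L (0.23 ± 0.0652) and the proliferation marker mki67.L (0.31 ± 0.0966) were higher in all 6 pairs as well. The p53 target rrm2b.S, another ribonucleotide reductase subunit, had 0.40 ± 0.0694 and missed the threshold (edgeR adjusted p = 0.0744). Without both NF 45 pairs numbered 2 and 3, 37 of the 104 (35.6%) were higher and 0 lower in the other 4 pairs. Of all genes, 9.03% were higher and 8.26% lower in those 4 pairs, which are part of the 6.

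Most progenitor and forebrain genes were higher by small amounts, without a call. Of 87 progenitor and radial glia genes, 68 had a log2 fold change above 0, 5 were higher and 1 lower in all 6 pairs, and the median was 0.11. At an unadjusted p under 0.05, 17 of them were higher and 3 lower. Of 93 forebrain patterning genes, 58 had a log2 fold change above 0, 7 were higher and 3 lower in all 6 pairs, and the median was 0.05. At an unadjusted p under 0.05, 27 of them were higher and 4 lower. Of all genes tested, 4.01% were higher and 5.18% lower at that unadjusted p, and 3.1% and 3.19% in all 6 pairs. The higher ones included dlx2.S and dlx5.S, homeobox genes of the ventral forebrain (0.35 ± 0.0801 and 0.38 ± 0.0885), lhx8.S, of cholinergic and ventral forebrain neurons (0.51 ± 0.115), and eomes.S, of pallial intermediate progenitors (0.37 ± 0.0891). The lower ones included lhx9.L, a thalamic and pallial homeobox gene (-0.34 ± 0.0789), and slc1a3.S, the glial glutamate transporter (-0.25 ± 0.0799). None was called, and the genes named here had edgeR adjusted p from 0.188. The forebrain median was -0.01, 0.09 and 0.30 in the NF 45 pairs and -0.09, 0.07 and 0.08 in the NF 47 pairs. Without both NF 45 pairs numbered 2 and 3, 10 forebrain genes (10.8%) were higher and 8 (8.6%) lower in the other 4 pairs. Of the progenitor genes 10 (11.5%) were higher and 3 (3.45%) lower there, beside 9.03% and 8.26% of all genes.

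Most genes of neuronal signalling were lower, by small amounts and without a call. Of 83 transmitter genes, which encode receptors, transporters and enzymes for acetylcholine, glycine, GABA and glutamate, 66 had a log2 fold change below 0, 10 were lower and 0 higher in all 6 pairs, and the median was -0.12. Of 125 ion channel genes, 97 were below 0, 10 were lower and 2 higher in all 6 pairs, and the median was -0.11. Of 56 synapse genes, 41 were below 0, 5 were lower and 0 higher in all 6 pairs, and the median was -0.07. These shares of 12%, 8% and 8.93% lower in all 6 pairs stand beside 3.19% of all genes. The list of 48 general neuronal genes had 1 higher and 1 lower, with a median of -0.02.

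The AMPA receptor subunit gene gria2.S stood at 55, 91.3 and 43.1 CPM in thioridazine brains at NF 45, against 83.7, 111 and 63.8 CPM in controls. At NF 47 gria2.S stood at 68.1, 70.7 and 60.6 CPM in thioridazine brains, against 87.2, 73.5 and 63.6 CPM in controls. All 6 pairs were lower, with overlapping groups (-0.32 ± 0.0716, edgeR adjusted p = 0.185). Also lower in all 6 pairs were gria3.L (-0.28 ± 0.0619), the NMDA receptor subunit grin2a.L (-0.28 ± 0.0795), the nicotinic receptor subunit chrna4.L (-0.30 ± 0.0706), the calcium channel subunit cacna2d2.S (-0.40 ± 0.0848), the fusion protein gene stx1a.L (-0.34 ± 0.0732) and the postsynaptic scaffold shank2.S (-0.41 ± 0.0926). Their edgeR adjusted p values lay between 0.158 and 0.321. Without NF 45 pairs 2 and 3, 22 transmitter (26.5%), 32 ion channel (25.6%) and 16 synapse genes (28.6%) were lower in the other 4. In those 4 pairs 0, 5 and 0 were higher, and of all genes 8.26% were lower and 9.03% higher. The 4 pairs are part of the 6, so genes lower in all 6 are counted again.

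**Figure D5:**
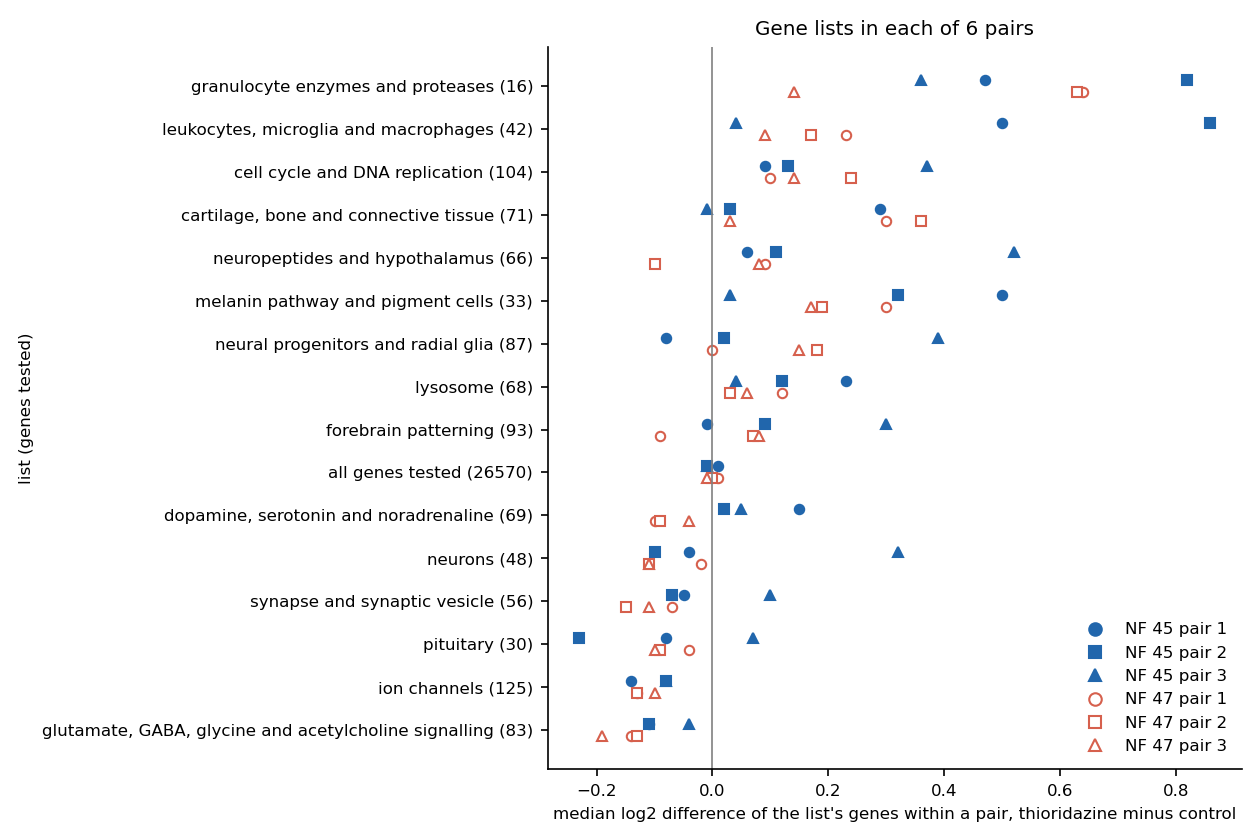
Median log2 difference (thioridazine minus control) of the genes of 15 lists and of all genes tested, 1 symbol per pair, with NF 45 filled and NF 47 open. Cell cycle and leukocyte medians are above 0 in every pair and transmitter medians below 0 in every pair. NF 45 pair 3 (filled triangle) stands apart from the other pairs in the neuronal, neuropeptide, progenitor and forebrain lists.

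Large, non-significant changes in the same direction in all 6 pairs were also seen in other genes. They were higher for xdh.S, xanthine dehydrogenase (1.64 ± 0.286), angpt4.S, an angiopoietin ligand of vessel growth (1.93 ± 0.365), hk2.S, a hexokinase (1.12 ± 0.302), c3.L, the central complement protein (1.02 ± 0.26), and lin28a.L, a regulator of let-7 microRNAs and of developmental timing (0.87 ± 0.254). Of these, angpt4.S and hk2.S reached no more than 1.19 CPM and 0.914 CPM in any control library, so their fold changes rest on few reads. aqp1.S, a water channel of the choroid plexus, was lower (-0.99 ± 0.178), at 2.73, 5.19 and 1.24 CPM in thioridazine brains at NF 45, against 4.56, 10.2 and 3.93 CPM in controls. Its other copy aqp1.L was also lower in all 6 pairs (-0.36 ± 0.075, edgeR adjusted p = 0.158). Of the 20 such genes chosen by size, 18 were higher and 2, aqp1.S and ocel1.L, lower, and edgeR adjusted p values of the genes named here lay between 0.0879 for aqp1.S and 0.334 for lin28a.L.

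No gene was called in several other lists. Their counts in all 6 pairs stand beside 3.1% higher and 3.19% lower of all genes. Ribosomal protein genes had 0 of 126 in the same direction in all 6 pairs, and oxidative phosphorylation genes 1 of 87, with medians of 0.03 and -0.01. Cholesterol synthesis, which phenothiazines can disturb, had 2 higher and 1 lower of 49 with a median of 0.02, and drug metabolism 1 higher of 33 with 0.03. Heat shock and endoplasmic reticulum stress genes had 2 higher and 2 lower of 48, with the chaperone hspa1a.L lower in all 6 pairs (-0.78 ± 0.222, edgeR adjusted p = 0.327). Of 34 myelin genes, 22 had a log2 fold change below 0 and the median was -0.11. In all 6 pairs 2 of them were higher and 0 lower, whereas at an unadjusted p under 0.05, 1 was higher and 8 were lower. Blood vessel genes had a median of -0.04 with 3 of 43 lower, and red blood cell genes 0.00 with 1 of 29 lower.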

How the data were processed

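RNA of whole tadpole brains was made into 12 libraries with an Illumina TruSeq v2 kit and read as 100 bp single-end reads, per the labels' protocols. That kit does not mark strand, so reads of overlapping antisense genes cannot be told apart. The authors deposited raw whole-number read counts per gene for each library. Trimmomatic, HISAT2, HTSeq and DESeq2 are the tools named, per the submitters' processing notes. Their versions, the genome build and the annotation are not given in the sources used here. Reads of similar copies could be split by this counting in a way that was not tested. Of 37018 NCBI gene numbers, 33597 had a symbol in a RefSeq table of assembly Xenopus_laevis_v10.1, used for names only, and these held 99.33% of reads.

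edgeR 4.0.16 in R 4.3.3 was used for the main fit. After filterByExpr on the 4 groups, 26570 genes were scaled by TMM and fitted with a quasi-likelihood model (robust dispersion) of 6 pairs as a block and a treatment coefficient per stage. The contrast was the mean of both coefficients, with Benjamini-Hochberg adjustment over the 26570 genes, and a gene was called at an adjusted p under 0.05. CPM use TMM-scaled totals. Direction per pair is the sign of the difference of log2 CPM with a prior count of 2, and a pair without reads in both libraries has none. The model was tested on simulated data. The median over genes of the gene-wise biological coefficient of variation was 13.3%.

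The labels give replicate numbers and do not say what they share. The numbers were taken to pair libraries because, within a stage, libraries with 1 number departed from their group means jointly, with every correlation over 0.1. The NF 45 control numbered 3 correlated more with thioridazine 1 (0.483) than with thioridazine 3 (0.449). No 2 replicates agreed within sampling noise (chi-square per gene of at least 6.91). P-values of the fits with the block measure the spread of the within-pair differences between these pairs. The origin of the libraries in separate clutches or animals is not stated.

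The members and gene lists were chosen with earlier results of these data known. The text names each called gene, of the uncalled genes with 1 direction in 6 pairs (unadjusted p under 0.01, mean of at least 1 CPM) most of the 20 largest, th and drd2, other copies of called genes, and up to 4 members per list, of which 1 is not reported here. Further list members were named after their values were seen, as were the kidney and granulocyte lists. Alternatives covered the block, the form of the treatment term, size factors (DESeq2 1.42.0), filters, summed copies, each pair left out, and limma 3.58.1 with voom.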

Additional observations from a re-analysis of the deposited data

Results flagged for a closer look

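Among the called genes and the th and drd2 copies, gpnmb.L had 1 pair far from the others. Its log2 difference within NF 45 pair 3 was 0.54, and the gap to the next pair was 0.657 of the whole range of the 6 pairs, above the 95% critical value of Dixon's test for 6 values. Chance gives such a gap in about 1 of 20 genes, and 29 genes were looked at. The gpnmb.L call held without that pair.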

How the results depend on the processing

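The direction of all 25 called genes held under each fit that left out 1 pair, and the calls did not. Leaving out each pair in turn gave 1 to 302 calls for the averaged difference, 1 to 157 for NF 45 and 0 to 54 for NF 47. With no replicate block the pairing was ignored, and there were 0 for the averaged difference, 0 at NF 45 and 0 at NF 47, and the adjusted p of the 25 genes lay between 0.126 and 1. A single common coefficient with the block gave 42, which included 22 of the 25 called genes. Without both NF 45 pairs numbered 2 and 3 there were 232 calls for the averaged difference, 86 at NF 45, 69 at NF 47 and 3 for the stage difference. That setting left 1 pair at NF 45, so the spread in its fit came from the NF 47 pairs alone. Its counts for the averaged difference, NF 45 and the stage difference thus rest on a stage without replication, and no conclusion is drawn from them. In the other 4 pairs 4595 genes had 1 direction, a setting chosen after seeing the data and with fewer pairs to meet. DESeq2 called 73, 35 at NF 45 and 8 at NF 47, and limma-voom 223, 65 and 16. At NF 45 no filter gave 39 and a stricter filter 2. In the main fit of all 12 libraries the NF 45 coefficient gave 6 calls and the NF 47 coefficient 1. No fit used the pairs of 1 stage alone. The causes of these changes were not tested. For the averaged difference, size factors by DESeq2's method gave 28 calls, no filter 35, a stricter filter 17 and summed copies 20. Of 1843 log2 fold changes of 131 named genes under the alternatives, 10 changed sign, in 4 genes that were not called. drd2.S, at -0.02, ran between -0.09 and 0.02 over the fits that left out a pair, above 0 without NF 45 pair 1 (0.02), NF 45 pair 2 (0.01) and NF 47 pair 3 (0.02). slc24a5.S ran between -0.30 and 0.08, above 0 without NF 45 pair 3 (0.08) and NF 47 pair 1 (0.01), and turned to 0.09 without both NF 45 pairs and to 0.01 with limma-voom. lgmn.S turned to 0.07 without both NF 45 pairs, and ednrb2.L ran between -0.08 and 0.26, below 0 without NF 45 pair 1 (-0.08) and NF 47 pair 2 (-0.05). Depth limits the near-0 genes, some of which had no read in a library.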

Other observations

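Genes of tissue outside the brain were uneven between libraries. Of 65 muscle genes tested, 52 had an averaged log2 fold change above 0 with a median of 0.32, but only 1, nrap.L, was higher in all 6 pairs. Their sum was 2063, 6506 and 1758 CPM in thioridazine brains at NF 45, against 1614, 4690 and 2792 CPM in controls. Both libraries numbered 2 held the most muscle RNA, and pair 3 ran the other way. At NF 47 the sum was 2364, 1803 and 2656 CPM in thioridazine brains, against 1634, 1196 and 2116 CPM in controls. All 3 NF 47 pairs were higher there.

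Eye genes varied between pairs. The 43 retina genes had a median of 0.22. All 10 lens crystallin and lens genes tested were below 0, with a median of -0.36, and none of these 10 was in 1 direction in all 6 pairs. Within NF 45 pair 3 both lists were lower, with medians of -1.67 for retina and -1.96 for lens. In NF 45 pairs 1 and 2 and NF 47 pair 3 both medians were above 0. Only in NF 47 pairs 1 and 2 did they differ in sign, at 0.02 and 0.25 for retina and -0.19 and -0.28 for lens. Retina sums were highest in thioridazine replicate 1 at NF 45 (954 CPM) and in control replicate 3 at NF 45 (1064 CPM), with 202 to 396 CPM in the other 10 libraries. The lens sum was highest in that control library too, at 51.4 CPM, with 9.71 to 24.2 CPM in the others. Of 29 liver, pancreas and gut genes, 24 were below 0. The plasma protein gene itih2.L reached 103 CPM in NF 45 control replicate 3, and between 0.118 and 0.875 CPM in the other 11 libraries. The part of these tissues in the differences between thioridazine and control brains was not tested.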
